A study of Homo sapiens with 6 samples.

Results

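The genes CDKN1A, CDKN1B, CDKN1C, CDKN2A, CDKN2B, CDKN2C, CDKN2D and CDKN3 encode the inhibitors of the cyclin-dependent kinases (CDKs), and their transcripts were followed in MDA-MB-231 cells given either of 2 miRNA precursors. A probe was taken as a member when the transcript accession that the scanner output prints beside it belongs to 1 of these 8 genes. This gave 8 of the 21743 genes named on the array and 11 of its 50599 probes, with CDKN1B, CDKN2A and CDKN3 each read by 2 probes. A probe was kept when some group had it well above background on both of its arrays, and 9 of the 18464 kept probes were members, and CDKN2B together with the dimmer CDKN2A probe made up the rest.

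MDA-MB-231 is an established human triple-negative breast cancer line with mesenchymal features, and it is known to have lost the chromosome segment that holds CDKN2A and CDKN2B. Its cells received a precursor of hsa-miR-205-5p, one of hsa-miR-214-3p or, as a negative control, a scrambled one, and RNA was collected 72 h later. The controls therefore also underwent reverse transfection with a precursor RNA. Each group has 2 arrays from the same line and the same slide, and the sources used here, which speak of independent experiments in general, do not say for these arrays whether the 2 came from separate cultures, so the p-values measure the spread between these arrays, which may be technical.

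CDK inhibitors hold the cell cycle back by binding the kinases that drive it. The CIP/KIP proteins p21 (CDKN1A), p27 (CDKN1B) and p57 (CDKN1C) bind cyclin-CDK complexes and inhibit above all those of CDK2, while the INK4 proteins p16 (from CDKN2A), p15 (CDKN2B), p18 (CDKN2C) and p19 (CDKN2D) bind CDK4 and CDK6 and keep D-type cyclins from activating them. CDKN3 is unlike the others: it is a phosphatase that removes the activating phosphate from CDK2, and its transcript is made in proliferating cells, with most of it in late cell cycle phases.

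The precursors deliver mature miRNAs whose targeting depends on the seed, bases 2 to 8. The sequences, from RefSeq (GRCh38.p14), are shown because they are the only designed difference between the groups, with the seed in capitals. hsa-miR-205-5p lies at chr1:209432166-209432187 on the plus strand and hsa-miR-214-3p at chr1:172138816-172138837 on the minus strand.
hsa-miR-205-5p: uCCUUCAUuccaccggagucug
hsa-miR-214-3p: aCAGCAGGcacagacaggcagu
The seeds carry the same base at 1 of 7 positions. Sites for these seeds in the inhibitor transcripts were not analysed here.

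Values below are normalized log2 signals, the log2 of a probe's processed signal less the array's 75th percentile, unless they are called differences. They compare arrays for the same probe only, and the level of a probe is not set against that of another. A probe was called lower or higher when its Benjamini-Hochberg adjusted p in limma, taken over all 18464 probes, was under 0.05 and the change at least 2-fold. With the miR-205-5p precursor, 0 of 9 member probes were called against the scrambled control, where 12.2% of all probes were called. With the miR-214-3p precursor, 0 of 9 were called, where 2.68% of all probes were. Between the precursors, 3 of 9 were called, all of them lower with miR-205-5p, where 11.6% of all probes were called lower and 19.9% in either direction. The 3 were both CDKN1B probes and CDKN2C. The dimmer CDKN1B probe was not well above background with miR-205-5p, entered only through the other groups, and has a bound under 2-fold, so its call rests on dim arrays, and with the filter for all 6 arrays the count was 2 of 8, where 10% of all probes so filtered were called lower and 18.7% in either direction. At an unadjusted p under 0.05 with no limit on the fold change, 4 member probes passed for miR-205-5p against the control, 3 for miR-214-3p against the control and 5 between the precursors, beside 37.2%, 22.6% and 46.1% of all probes. With the 2-fold limit the counts at that unadjusted p were 0, 0 and 3, beside 15.8%, 6.56% and 23.1% of all probes, and by the methods' t-test they were the same, beside 8.98%, 4.12% and 19.5%. Both comparisons with the control use the same 2 control arrays, so their values are not independent of each other.

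**Figure D1:**
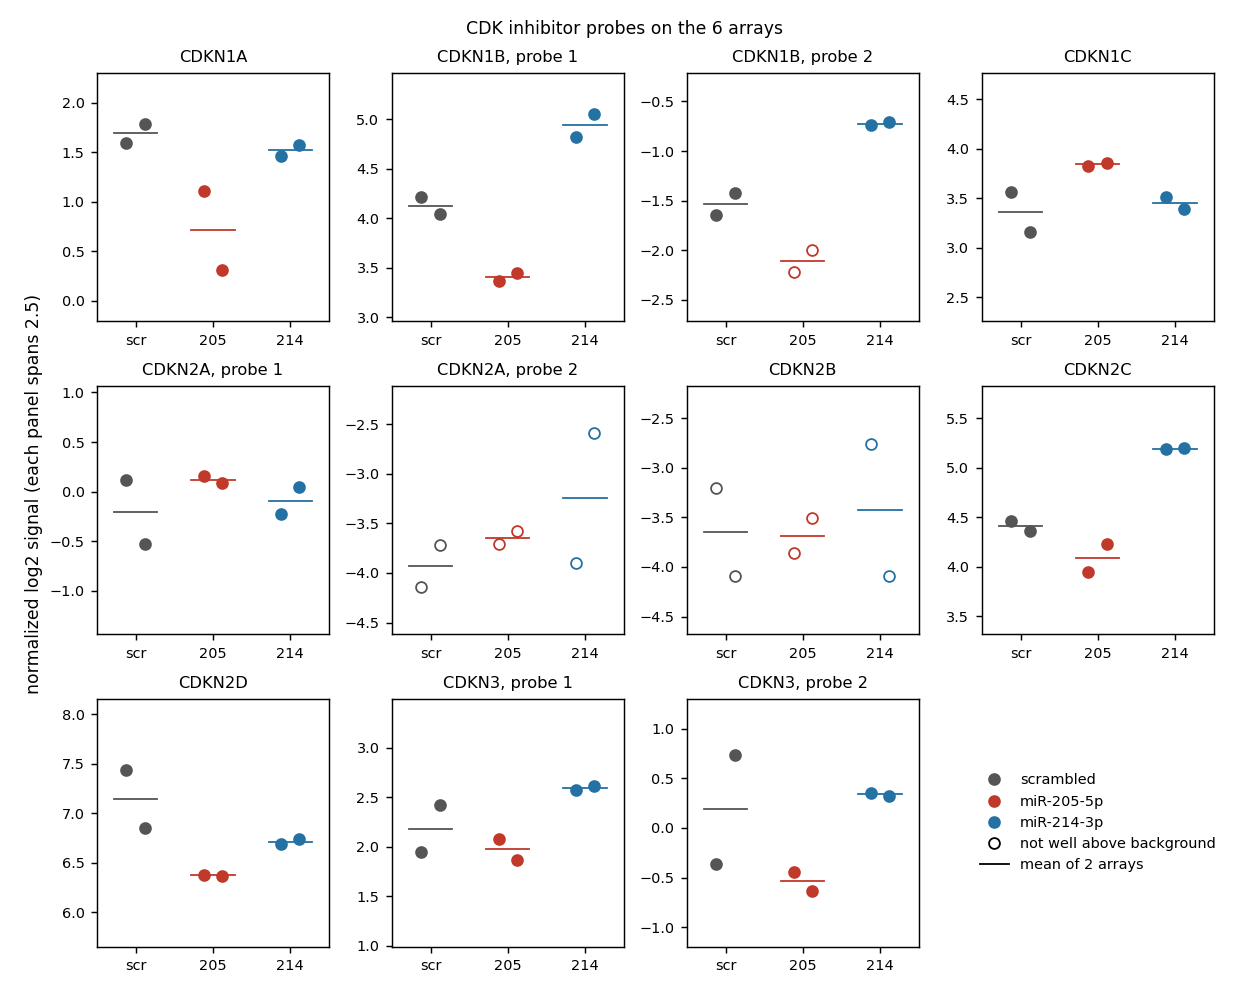
Normalized log2 signal (y axis) of the 11 probes of the 8 CDK inhibitor genes on each of the 6 arrays, with columns for the scrambled control (scr), the miR-205-5p precursor and the miR-214-3p precursor, in this order, a line at each group's mean, and open points where the probe was not well above background. Each panel has its own y axis of equal span. The CDKN1B and CDKN2C points lie lowest with miR-205-5p and highest with miR-214-3p, and the CDKN2B points and those of the dimmer CDKN2A probe lie at or below −2.58 on every array.

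CDKN1B, which encodes p27, the inhibitor that must be cleared before CDK2 can drive entry into S phase, had the widest separation between the precursors in the family. Its brighter probe (transcript NM_004064) read 3.37 and 3.45 with miR-205-5p, 4.82 and 5.05 with miR-214-3p, and 4.21 and 4.04 in the control. The groups did not overlap: both miR-205-5p arrays were below both controls and both miR-214-3p arrays were above them. The direct difference between the precursors was −1.53 (SE 0.17, 95% confidence interval −1.95 to −1.10, limma adjusted p = 0.00512), a signal 2.88-fold lower with miR-205-5p. Against the control the difference was −0.72 (SE 0.17, adjusted p = 0.0421 by limma) with miR-205-5p, short of the 2-fold limit, and 0.81 (SE 0.17, adjusted p = 0.0758 by limma) with miR-214-3p. It was the 1 of 9 member probes past the adjusted p against the control, where 11.1% of all probes were lower by that adjusted p, and it did not pass with the replicate block (limma adjusted p = 0.0764), with no filter (0.0816), on the 4 arrays compared alone (0.111), without any 1 of the 4 precursor arrays (0.111 to 0.156) or by the methods' t-test after Benjamini-Hochberg adjustment (0.178). In bulk RNA, less transcript per cell and fewer cells that hold it cannot be told apart.

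The dimmer CDKN1B probe answers to the same transcript and was printed at 10 spots on each array, which allows a look at the error within an array. The averaged values were −2.22 and −2.0 with miR-205-5p, −0.74 and −0.71 with miR-214-3p, and −1.64 and −1.42 in the control, in the same order as for the brighter probe. Of the 10 spots, 0 and 0 were well above background on the miR-205-5p arrays, 10 and 10 on the miR-214-3p arrays, and 9 and 10 on the control arrays. The processed signal of single spots ran from 2.93 to 11.9 over the miR-205-5p arrays, from 16.4 to 34.9 over the miR-214-3p arrays and from 12 to 28.9 over the control arrays, so before normalization the spots with miR-205-5p lay below every spot of the other arrays. After it they reached −1.60 and stayed below the miR-214-3p spots, the lowest of which was at −1.17, but they overlapped the control spots, which started at −2.07. Because the miR-205-5p arrays were not well above background, the difference is a bound: the signal was at least 1.85-fold lower with miR-205-5p than with miR-214-3p (limma adjusted p = 0.00607, measured difference −1.38), and at least 1.06-fold lower than in the control (limma adjusted p = 0.0735, measured difference −0.58). The bound places the dim arrays at the weakest signal that any probe well above background had there. With miR-214-3p against the control the difference was 0.81 (SE 0.17, limma adjusted p = 0.0783).

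**Figure D2:**
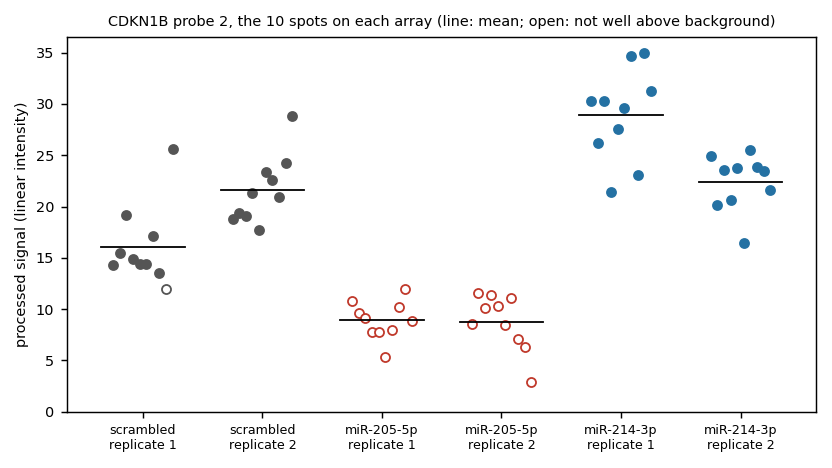
Processed signal on a linear scale, before normalization between arrays (y axis), of each of the 10 spots of the dimmer CDKN1B probe on the 6 arrays (x axis), with open points for spots not well above background and a line at each array's mean. The spots of both miR-205-5p arrays are all open and reach 11.9 at most, while those of both miR-214-3p arrays are all filled and start at 16.4.

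CDKN1A, the p21 gene, a stress-responsive brake on the cell cycle, was read by a single probe (NM_078467). It gave 1.11 and 0.31 with miR-205-5p, 1.47 and 1.57 with miR-214-3p, and 1.60 and 1.78 in the control. Both miR-205-5p arrays were below the 4 others, and they were also 0.80 apart from each other, the widest gap between replicates for this probe. The difference from the control was −0.98 with miR-205-5p (SE 0.29, 95% interval −1.70 to −0.25, limma adjusted p = 0.0705) and −0.17 with miR-214-3p (SE 0.29, interval −0.90 to 0.55, limma adjusted p = 0.766), neither called. Without the first miR-205-5p array, the higher of the pair, the difference with that precursor was −1.38, while without the second it was −0.58. Under normexp background correction it was −0.62, past the adjusted p (0.0240 by limma) but short of the 2-fold limit. With the filter for all 6 arrays the difference of −0.98 had a limma adjusted p of 0.0493.

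CDKN1C, the p57 gene, which is imprinted and active mostly in development and differentiation, read 3.82 and 3.86 with miR-205-5p, 3.51 and 3.39 with miR-214-3p, and 3.56 and 3.16 in the control (NM_000076). It was the CIP/KIP gene whose miR-205-5p arrays lay above the rest. The difference from the control was 0.48 (SE 0.19, 95% interval from −0.00 to 0.96, limma adjusted p = 0.136) with miR-205-5p and 0.09 (SE 0.19, limma adjusted p = 0.820) with miR-214-3p, the latter turning to −0.076 when arrays were scaled to their median, and neither passed the test. The value for miR-205-5p was 0.090 under that scaling, 0.21 under normexp and 0.28 without the second control array.

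Among the INK4 genes, CDKN2C, whose product p18 binds CDK6 most readily, was the called member. Its probe (NM_078626) read 3.95 and 4.23 with miR-205-5p, 5.19 and 5.19 with miR-214-3p, and 4.46 and 4.36 in the control. As for CDKN1B, the miR-205-5p arrays were below both controls and the miR-214-3p arrays above both. The signal was 2.14-fold lower with miR-205-5p than with miR-214-3p, a difference of −1.10 (SE 0.17, 95% interval −1.53 to −0.67, limma adjusted p = 0.0101). The difference from the control was −0.32 (SE 0.17, interval −0.75 to 0.11, limma adjusted p = 0.236) with miR-205-5p and 0.78 (SE 0.17, interval 0.35 to 1.21, limma adjusted p = 0.0800) with miR-214-3p. Against the 2 control arrays neither passed the test as reported. With the filter for all 6 arrays the limma adjusted p for CDKN2C with miR-214-3p was 0.0491. For the brighter CDKN1B probe it was 0.0455, and both differences stayed short of the 2-fold limit.

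The calls between the precursors rest on few arrays. When the second miR-214-3p array was left out, the brighter CDKN1B probe was at −1.41 and CDKN2C at −1.10, and neither was called in that fit. When the first was left out, they were at −1.64 and −1.10, and CDKN2C was not called. Without the first miR-205-5p array CDKN2C was at −0.96, short of the 2-fold limit, and CDKN1A at −1.21. The shares of all probes called in these fits are not given, so the losses are not set against the array.

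CDKN2D, the p19 gene, read 6.38 and 6.37 with miR-205-5p, 6.69 and 6.74 with miR-214-3p, and 7.44 and 6.85 in the control (NM_001800). All 4 precursor arrays were below both control arrays, and the control arrays were 0.59 apart, farther than either precursor pair. The difference from the control was −0.77 (SE 0.23, 95% interval −1.34 to −0.19, limma adjusted p = 0.0733) with miR-205-5p and −0.43 (SE 0.23, interval −1.0 to 0.15, limma adjusted p = 0.335) with miR-214-3p, and −0.34 (SE 0.23, limma adjusted p = 0.293) between the precursors. None of the 3 passed the test. With miR-205-5p it was called under normexp background correction, at −1.23 (limma adjusted p = 0.0222), and, at −1.06, when the second control array was left out, whereas without the first control array it was −0.47.

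CDKN2A and CDKN2B served as a check of the background, since the line has lost them. CDKN2B (NM_004936) and the CDKN2A probe of NM_000077 were well above background on 0 of 6 arrays. Their processed signals ran from 2.15 to 7.13, under the lowest signal of any probe well above background, which was 9.91 to 13 over the arrays. Neighbouring genes gave the same picture: the 9 probes of MTAP, CDKN2B-AS1, DMRTA1, KLHL9 and IFNE, which lie beside CDKN2A on chromosome arm 9p, were well above background on 0 arrays, with signals of 1.99 to 9.43. MTAP, the methylthioadenosine phosphorylase gene often lost together with CDKN2A, and CDKN2B-AS1, the antisense RNA of CDKN2B, had 3 of these probes each. Per array 31.7% to 38.0% of all probes were well above background, so signals at background were common. By themselves they do not show that a gene is lost.

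The brighter CDKN2A probe, of transcript NM_058197, went against that picture. It was well above background on all 6 arrays, with processed signals of 46.5 and 37.2 with miR-205-5p, 41.4 and 37.7 with miR-214-3p, and 54.4 and 40.2 in the control. After normalization it read 0.16 and 0.08, −0.22 and 0.04, and 0.11 and −0.53 in the same order, and the precursor arrays overlapped the control arrays. The difference was 0.33 (SE 0.26, limma adjusted p = 0.390) with miR-205-5p and 0.12 (SE 0.26, limma adjusted p = 0.822) with miR-214-3p, and these turned to −0.061 and −0.048 when arrays were scaled to their median, a shift that all probes share. What this probe binds was not tested, and its values are not read as CDKN2A expression.

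CDKN3 was read by 2 probes of the same transcript (NM_005192). The brighter gave 2.07 and 1.87 with miR-205-5p, 2.58 and 2.61 with miR-214-3p, and 1.95 and 2.42 in the control. The dimmer gave −0.44 and −0.64, 0.35 and 0.32, and −0.36 and 0.74 in the same order. On both probes each miR-214-3p array was above each miR-205-5p array, and the control arrays were far apart, by 0.47 on the brighter probe and 1.1 on the dimmer. Between the precursors the difference was −0.62 (SE 0.21, 95% interval −1.15 to −0.09, limma adjusted p = 0.0757) and −0.88 (SE 0.37, interval −1.80 to 0.04, limma adjusted p = 0.120). Against the control it was −0.21 and −0.73 with miR-205-5p, the first turning to 0.024 without the second control array, and 0.41 and 0.15 with miR-214-3p. None passed the test. On the dimmer probe the values hung on the control arrays: without the first of them they were −1.28 with miR-205-5p and −0.40 with miR-214-3p, and without the second −0.18 and 0.70.

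**Figure D3:**
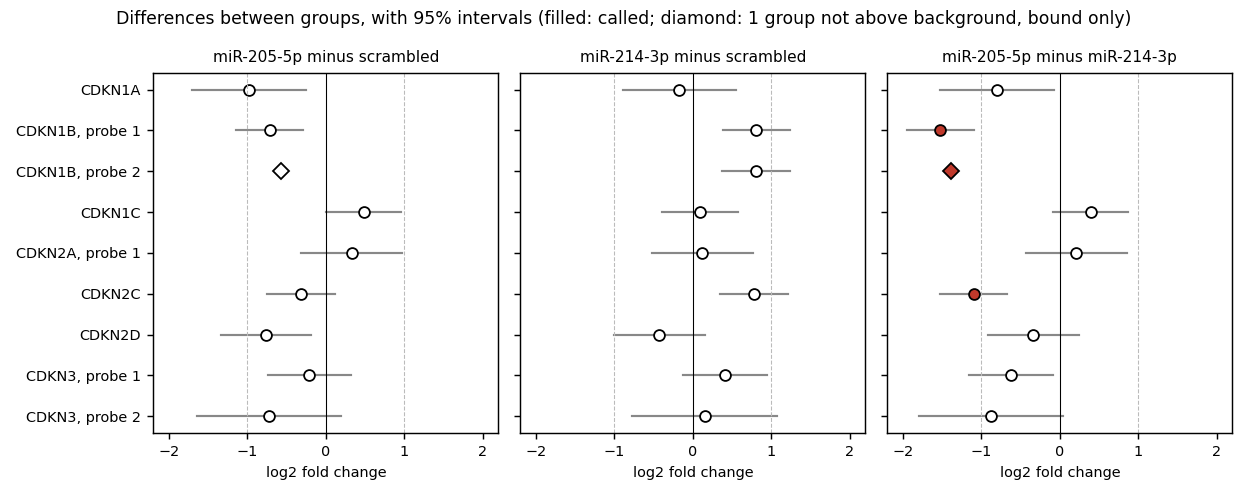
Differences in log2 signal (x axis) of the 9 member probes that passed the background filter, for miR-205-5p minus scrambled, miR-214-3p minus scrambled and miR-205-5p minus miR-214-3p, with bars for the 95% confidence intervals from limma, filled points for called probes and diamonds without bars where a group was not well above background, so that a bound alone holds. The filled circles are the brighter CDKN1B probe (−1.53) and CDKN2C (−1.10) in the comparison of the precursors, and the filled diamond is the dimmer CDKN1B probe, at least 1.85-fold lower.

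Of the 9 probes, 8 were well above background on all 6 arrays, all but the dimmer CDKN1B probe. Over these 8 the median difference was −0.52 for miR-205-5p against the control, 0.13 for miR-214-3p against the control and −0.71 between the precursors, beside 0.12, −0.01 and 0.15 over the 14711 probes of the array that met the same condition. The 2 arrays of each group did not overlap on 6, 5 and 8 of them, where this held for 63.9%, 56.1% and 80.8% of those probes, so lack of overlap was common on the array. The pattern in which both miR-205-5p arrays lie below and both miR-214-3p arrays above both controls held for 2 of the 8, the brighter CDKN1B probe and CDKN2C, beside 8.38% of those probes. The probes are not replicates, as CDKN3 contributes 2. The 8, like the 9 tested, also include the brighter CDKN2A probe, whose values are not read as CDKN2A expression.

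Over the 6 arrays CDKN1B and CDKN2C followed each other with a Pearson r of 0.96, and CDKN1A and CDKN1C ran opposite with r of −0.84. These are descriptions over 6 points in 3 groups that share a scaling. Of 10211 other genes well above background on all 6 arrays, those closest to CDKN1B were COLGALT1 (r 0.999), PLEKHG4 (r 0.998) and HDAC10 (r 0.995), and those closest to CDKN2C were ARAP1 (r 0.999), TENT5B (r 0.996) and SYDE1 (r 0.993). An r above 0.9 was reached by 678 genes for CDKN1B and 339 for CDKN2C, so closeness of this kind was frequent. For CDKN1A they were CST5, POMGNT2 and WRNIP1, for CDKN1C DMAC2, CEP131 and IL17RA, for CDKN2D CLN3, DPM2 and UBXN6, and for the brighter CDKN3 probe CCR6, BNIP3L and NEXN, with r of 0.985 or more. The brighter CDKN2A probe was closest to ZFTA, NOBOX and ZNF672.

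The kinases and cyclins that the inhibitors act on were read at the brightest probe of each gene. Of 10 listed genes, 8 were tested, and CCND2 and CCNE2 did not pass the background filter. With miR-205-5p 0 of the 8 were called against the control, where 7.98% of genes were called lower and 4.78% higher, and the median difference was −0.72 beside 0.08 over all genes. CDK4, a target of the INK4 proteins, was lower by an adjusted p without reaching 2-fold, at −0.86 (SE 0.16, limma adjusted p = 0.0228), as were CCND3 at −0.96 (limma adjusted p = 0.0173) and CDK1 at −0.74 (limma adjusted p = 0.0347). The values for its partner CCND1, cyclin D1, were −0.67 (limma adjusted p = 0.0503), for CDK2 −0.71 (limma adjusted p = 0.232) and for CDK6 0.93 (limma adjusted p = 0.0589), and none of these passed the test.

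With miR-214-3p CCNE1, which encodes cyclin E1, the partner of CDK2, fell by 1.23 (SE 0.17, limma adjusted p = 0.0371). It read 4.53 and 4.53 with that precursor, 5.86 and 5.65 in the control, and 5.33 and 5.51 with miR-205-5p. It was the called gene among the 8, where 2.03% of genes were called lower. In this comparison 0 probes of the whole array were called with the replicate block, with no filter or on the 4 arrays compared alone, so the CCNE1 call is lost there. CDK4 (0.00), CDK2 (0.16), CDK6 (0.13) and CCND1 (0.26) had adjusted p of 0.432 or more in limma. Between the precursors CCNA2, cyclin A2, was lower with miR-205-5p by −1.41 (limma adjusted p = 0.0178) and CCND3, cyclin D3, by −1.07 (limma adjusted p = 0.00876), 2 of 8 called lower where 11.3% of genes were. CCND1 (−0.92), CDK4 (−0.86) and CDK1 (−0.78) on the lower side and CCNE1 (0.89) on the higher side passed the adjusted p but not the fold limit.

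The pocket proteins and E2F factors stand downstream, since CDKs free E2F from RB1 by phosphorylating it. With miR-205-5p 1 of 12 tested genes was called, near the 7.98% of all genes called lower. It was the activator E2F2, which fell by 1.71 (limma adjusted p = 0.0272) and read 2.14 and 1.23 against 3.55 and 3.23 in the control. With miR-214-3p 0 of 12 were called by limma, where 2.03% of all genes were called lower and 1.09% higher, and E2F2 read 2.10 and 1.79. Between the precursors TFDP2, an E2F partner, was higher with miR-205-5p by 1.04 (limma adjusted p = 0.0146). It was the 1 of 12 called, where 11.3% of all genes were called lower and 9.18% higher. The list's median lay between −0.04 and −0.01 in the 3 comparisons.

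Kinases and phosphatases that set the phosphorylation of CDKs act beside the inhibitors. CDC25B, a phosphatase that activates CDKs, was the 1 of 8 called with miR-205-5p, where 7.98% of all genes were called lower. It fell by 1.16 (limma adjusted p = 0.0129). With miR-214-3p 0 of 8 were called, where 2.03% of all genes were called lower and 1.09% higher. Between the precursors CDC25C was lower with miR-205-5p by −1.13 (limma adjusted p = 0.0166) and MNAT1, the assembly factor of the CDK-activating kinase, higher by 1.39 (limma adjusted p = 0.0420), where 11.3% of all genes were called lower and 9.18% higher.

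**Figure D4:**
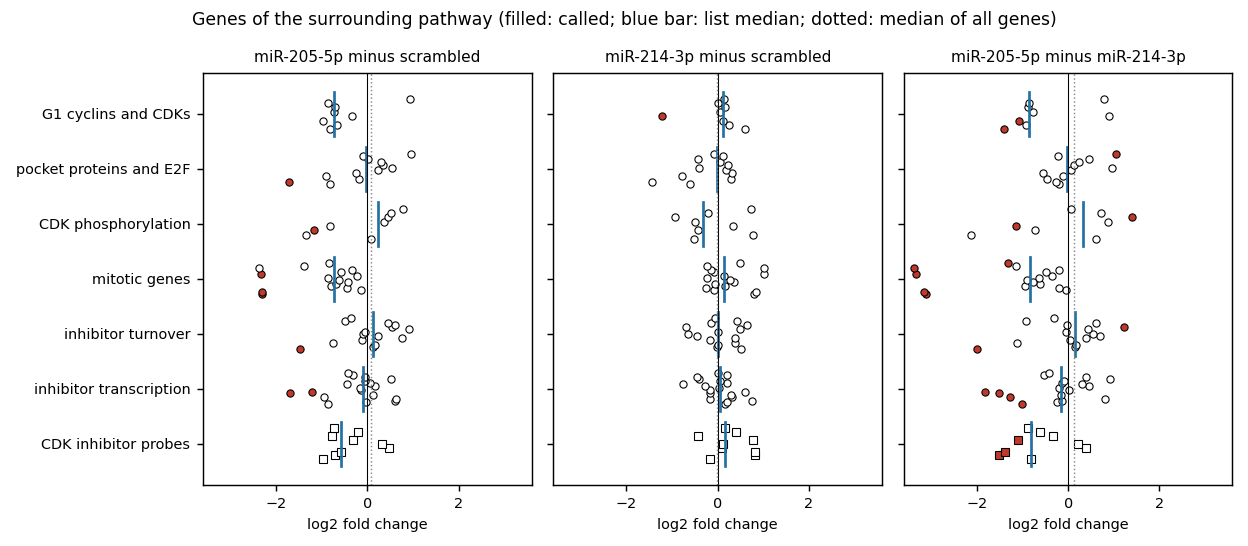
Differences in log2 signal (x axis) of the tested genes of 6 lists around the CDK inhibitors (y axis), for miR-205-5p minus scrambled, miR-214-3p minus scrambled and miR-205-5p minus miR-214-3p, with filled points for called genes, a vertical mark for each list's median and the member probes as squares. All 16 mitotic genes lie below 0 with miR-205-5p against either other group, with called genes down to −3.37. TTK among them was not well above background with miR-205-5p, and the lists were chosen with earlier results of these data known.

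The mitotic genes listed beside CDKN3, as a class expressed in the same cell cycle phases, were then read. Of 16 tested, 3 were called lower against the control, where 7.98% of all genes were: AURKB, a kinase of the chromosomal passenger complex, fell by 2.31 (limma adjusted p = 0.00799), AURKA, the spindle pole kinase, by 2.32 (limma adjusted p = 0.0210), and KIF20A, a mitotic kinesin, by 2.33 (limma adjusted p = 0.0361). All 16 differences were below 0, where 45.3% of all genes were, and the median was −0.74. TTK, 1 of the 16, was not well above background with miR-205-5p and was kept through the other groups. The other 15 were well above background on all 6 arrays. The list was chosen with earlier results of these data known, and the paper names CCNB1 and CENPF among its miR-205-5p targets. The shared direction is therefore a description and not a test. With miR-214-3p 0 of 16 were called by limma, where 2.03% of all genes were called lower and 1.09% higher, 7 were below 0, where 51% of all genes were, and the median was 0.14. Between the precursors 5 of 16 were called lower with miR-205-5p, where 11.3% of all genes were: TOP2A (−3.37), KIF20A (−3.34), AURKB (−3.16), AURKA (−3.12) and UBE2C (−1.33), with adjusted p of 0.0227 or less in limma.

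The control arrays differed widely for several of these genes, as they did for CDKN3. TOP2A, the DNA topoisomerase of proliferating cells, read 1.63 and 3.97 in the control, beside 0.48 and 0.39 with miR-205-5p and 3.79 and 3.83 with miR-214-3p. KIF20A read 1.35 and 3.01 in the control, beside −0.16 and −0.13 with miR-205-5p and 3.22 and 3.17 with miR-214-3p. In both genes the first control array was the lower, as it was on both CDKN3 probes. The list was not uniform in this: at BIRC5, CCNB2, CENPF, NUSAP1 and UBE2C the first control array was the higher. The part of the mitotic genes' shift in the inhibitor values was not tested.

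p27 and its relatives are cleared by ubiquitin ligases, whose genes formed a list of 15. SKP2, which recognises p27 for destruction, read −0.39 and −0.43 with miR-205-5p, 0.58 and 0.45 with miR-214-3p, and −0.58 and 0.75 in the control, so the controls spanned the other arrays and none of the comparisons passed the test. CDC20, an activator of the anaphase-promoting complex, was the 1 of 15 called with miR-205-5p, a share below the 7.98% of all genes called lower, and fell by 1.47 (limma adjusted p = 0.00898). With miR-214-3p 0 of 15 were called by limma, where 2.03% of all genes were called lower and 1.09% higher. Between the precursors CDC20 was lower with miR-205-5p by −1.99 (limma adjusted p = 0.00383) and RBX1, the RING subunit of cullin ligases, was higher by 1.23 (limma adjusted p = 0.0128). That is 1 lower and 1 higher of 15, where 11.3% of all genes were called lower and 9.18% higher.

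Factors that control transcription of the inhibitors include the FOXO proteins as activators and MYC, BMI1 and the ID proteins as repressors. Of 18 tested, ID2 fell by 1.68 (limma adjusted p = 0.00800) and ID3 by 1.22 (limma adjusted p = 0.0106) with miR-205-5p, beside 7.98% of all genes called lower. With miR-214-3p 0 of the 18 were called by limma, where 2.03% of all genes were called lower and 1.09% higher. ID2 read 0.42 and 0.47 with miR-205-5p, 1.85 and 2.07 with miR-214-3p, and 2.13 and 2.13 in the control, so the miR-205-5p arrays stood apart from the rest. Between the precursors 4 of 18 were called lower with miR-205-5p, where 11.3% of all genes were. Of the 15 well above background on all 6 arrays, ID3 (−1.82) and ID2 (−1.52) were called, where 9.6% of all such genes were called lower. FOXO4 and BMI1 made up the rest, but they were not well above background with miR-205-5p and were kept through the other groups, with bounds of at least 1.56-fold and 1.79-fold lower, under the 2-fold limit. BMI1 is named after its values were seen. MYC differed from the control by 0.18 with miR-205-5p and −0.29 with miR-214-3p, with adjusted p of 0.438 and 0.331 in limma.

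The promoters of the called genes are shown since both were called in the same comparison. RefSeq windows of 250 bases before the start were searched on both strands for the E2F sites spelled TTTCCCGC and TTTCGCGC as well as TTTGCCGC and also TTTGGCGC, for the GC box GGGCGG, for the CCAAT box, for the E-box CACGTG, for the cell cycle element TTTGAA, for the forkhead site GTAAACA and for the TATA box TATAAA. Overlapping matches were each counted. A promoter was given for 7 of the 8 genes, with 10 starts. CDKN1B has its start window at chr12:12717118-12717367, plus strand (GRCh38.p14), with 2 CCAAT matches and 1 GC box in capitals. The CDKN2C window, 1 of 3 starts that the probe does not tell apart, lies at chr1:50969995-50970244, plus strand, and holds 1 CCAAT, 1 E-box and 1 GC box, and this start was picked because it holds the motif kinds of CDKN1B, so the likeness follows from the choice: the other starts hold 0 CCAAT matches, 1 of them 0 GC boxes and the other 5.
CDKN1B: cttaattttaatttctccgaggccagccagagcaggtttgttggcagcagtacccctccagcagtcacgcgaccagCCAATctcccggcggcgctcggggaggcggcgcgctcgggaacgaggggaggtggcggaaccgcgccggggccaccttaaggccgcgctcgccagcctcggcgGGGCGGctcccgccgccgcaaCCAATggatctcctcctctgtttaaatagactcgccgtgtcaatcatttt
CDKN2C: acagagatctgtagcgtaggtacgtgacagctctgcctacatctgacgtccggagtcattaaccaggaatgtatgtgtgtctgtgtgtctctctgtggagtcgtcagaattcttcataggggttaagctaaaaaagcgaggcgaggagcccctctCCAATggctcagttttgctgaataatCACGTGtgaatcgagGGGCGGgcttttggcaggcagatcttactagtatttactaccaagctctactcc
Of the 10 member starts, 7 held a GC box, 4 a CCAAT, 2 an E-box and 1, that of CDKN3, a TTTGAA, while E2F, forkhead and TATAAA letters were found in 0. Over all 35116 promoter windows of this length the shares were 42.6% for the GC box, 32% for CCAAT, 6.34% for the E-box, 13.3% for TTTGAA, 2.79% for E2F, 2.98% for the forkhead site and 10.7% for TATAAA. These are matches of letters only.

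Scaling each array to its median in place of its 75th percentile moved the median difference of all probes from 0.05 to −0.34 for miR-205-5p and from −0.01 to −0.17 for miR-214-3p, and under it CDKN1A (−1.37), the brighter CDKN1B probe (−1.11) and CDKN2D (−1.16) were called lower with miR-205-5p against the control. Under the same scaling 3188 of all 18464 probes were called in this comparison, 2912 of them lower. Taken relative to the median of all probes, which this change of scaling cannot alter, the differences with miR-205-5p were −1.03 for CDKN1A, −0.77 for CDKN1B, 0.43 for CDKN1C, 0.27 for CDKN2A, −0.37 for CDKN2C, −0.82 for CDKN2D and −0.27 for CDKN3, each at its brighter probe. The CDKN2A value is again not read as expression of that gene.

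**Figure D5:**
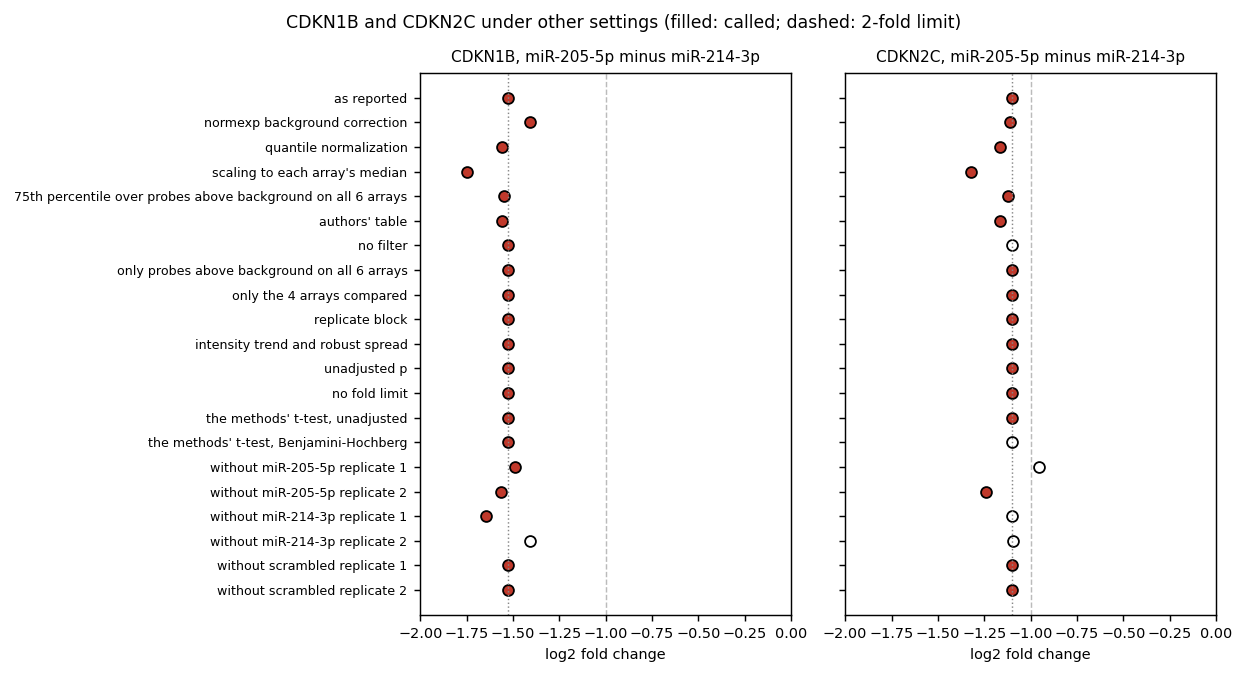
Difference in log2 signal between miR-205-5p and miR-214-3p (x axis) of the brighter CDKN1B probe and of CDKN2C under each processing setting (y axis), with filled points where the probe was called, a dotted line at the reported value and a dashed line at the 2-fold limit. All points lie below −0.95, and the open ones are CDKN1B without the second miR-214-3p array and CDKN2C under 5 settings.

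The label was set against listed markers. All 6 mesenchymal markers, VIM among them, were well above background on every array, and none was called. Of the receptor genes behind the term triple-negative, ESR1 and PGR were not above background. ERBB2 transcript was, on all 6 arrays, which does not bear on the label, since the term refers to overexpression or amplification of HER2. It was called higher with miR-205-5p than with miR-214-3p, by 1.08 (limma adjusted p = 0.00756). The summed signal of 6 epithelial markers, in units of each array's 75th percentile, ran from 3019 to 3207 with miR-205-5p, 1519 to 1656 with miR-214-3p and 1554 to 2020 in the control, and EPCAM (2.40), CDH1 (1.96) and KRT19 (1.18) were called higher with miR-205-5p than in the control. These and CLDN4 (1.21, limma adjusted p = 0.0126) were called higher than with miR-214-3p. The sum is weighted to its brightest probes and does not set genes against each other. A dimmer KRT18 probe went the other way, at 6.20 and 4.54 with miR-205-5p beside 6.42 and 6.50 in the control. A dimmer KRT8 probe was higher, at 3.69 and 3.70 beside 3.34 and 2.99. Of 12 probes of blood, endothelial and liver markers, 3 were above background on any array, and those of CD3E, VWF and ALB on none. PECAM1 was called lower with miR-205-5p, where it was not well above background. The part of the epithelial shift in the inhibitor values was not tested. Between 31.7% and 38.0% of probes were well above background per array, and none of the non-control spots was saturated.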

How the data were processed

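Gene expression in MDA-MB-231 cells was read on 6 one-colour Agilent SurePrint G3 Human GE arrays, all on 1 slide and scanned together. The authors deposited the output of Agilent Feature Extraction 11.0, whose processed signal is a linear intensity after background subtraction and spatial detrending, and their own values for these arrays in log2 form. In the latter every column holds the same sorted values, and the normalization is not given in the sources used here. The methods name GeneSpring 13.0, a p-value limit and a 2-fold limit for the arrays and, under statistics in general, a t-test with both tails, and no adjustment is stated there for these arrays.

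Control and outlier spots were left out, spots of a probe averaged, log2 taken and each array's 75th percentile subtracted (35.1 to 58.0 over the arrays). A probe was kept when a group had it well above background on each of its arrays (18464 of 50599). limma 3.58.1 (lmFit, eBayes) in R 4.3.3 was run on all 6 arrays, with 3 residual degrees of freedom and Benjamini-Hochberg adjustment over all kept probes, and it was tested on simulated arrays. A call needed an adjusted p under 0.05 and a 2-fold change. The depth of an array is not a count, and the 2 arrays per group limit the precision. A probe was named through its accession in the RefSeq table of GRCh38.p14, which named 30275 probes, and the array design uses another build, so no gene coordinates were taken from it. Genes with several probes were read at the brightest kept probe, members at every probe. Motifs were counted with Python 3.11.15, and files were read with the R package data.table, and plots were made with matplotlib 3.10.9 and pandas 2.3.3.

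The text names all members, the called genes of the lists (the 4 with the largest change where more were called in a comparison, with UBE2C added after its values were seen), MTAP, CDKN2B-AS1, SKP2, CDK2, CDK4, CDK6, CCND1 and MYC, and for each member the 3 genes closest in Pearson r. Beyond this rule, CDK1, CCND3 and CCNE1 in comparisons where they passed the adjusted p alone, listed genes that were not above background, and VIM were named after their values were seen. The same holds for BIRC5, CCNB1, CCNB2, CENPF, NUSAP1, TTK, KRT8 and KRT18. Some results are not reported here. The members and the 11 lists were chosen with earlier results of these data known. Alternative settings comprised normexp correction (offset 50) of the median signals, since no mean signal was at hand, quantile and median scaling, a percentile over probes above background everywhere, the authors' values, other filters, fits without the third group, the replicate block, an intensity trend, the methods' t-test, other limits and leaving out each array. A slide block was not run, as there is a single slide.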

Additional observations from a re-analysis of the deposited data

Results flagged for a closer look

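For the probes below, the effects of the precursors differed from each other by a test of the difference itself. On the log2 scale, miR-205-5p lay below miR-214-3p by a difference of −1.53 on the brighter CDKN1B probe and −1.10 on the CDKN2C probe. For the dimmer CDKN1B probe, which was not well above background with miR-205-5p, the measured difference of −1.38 stands for a bound of at least 1.85-fold, under the 2-fold limit, so it is not counted as a further result. On the brighter CDKN1B probe and CDKN2C both miR-205-5p arrays lay below, and both miR-214-3p arrays above, both control arrays. Lying on opposite sides of the control was part of the rule that picked the probes, beside the adjusted p between the precursors. It held for 8.38% of all probes well above background on all 6 arrays. Since both effects are taken against the same control arrays, the difference between them equals the direct comparison of the precursors, in which, with the filter for all 6 arrays, these 2 of 8 member probes were called beside 18.7% of all probes. Without the second miR-214-3p array the differences were −1.41 on the brighter CDKN1B probe and −1.10 on CDKN2C, and neither was called in that fit.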

How the results depend on the processing

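For miR-205-5p against the control, 0 member probes were called as reported, beside 2250 of all 18464 probes. Under normexp 1 was called lower (CDKN2D), beside 991 of all probes, 842 of them lower. Scaling to the median gave 3, all lower, beside 3188 of all probes, 2912 of them lower. The authors' table gave 1 lower (the dimmer CDKN1B probe), beside 2262 of all probes, 1538 of them lower. With no limit on fold change 1 was lower (the brighter CDKN1B probe), where 11.1% of all probes were lower. Leaving out 1 array took some differences past 2-fold. CDKN1A came to −1.38 without the first miR-205-5p array. The dimmer CDKN3 probe came to −1.28 without the first control array, and CDKN2D to −1.06 without the second. For miR-214-3p against the control the count was 0 under all alternatives that were run. Between the precursors 3 were called as reported, beside 3678 of all 18464 probes. The count was 2 under normexp, beside 1394 of all probes, and 2 with no filter, beside 1844 of 50588. With the filter for all 6 arrays it was 2, beside 2752 of 14711, and the adjusted t-test also gave 2. CDKN2C missed the threshold with no filter, at a limma adjusted p of 0.0590, and was also lost in the adjusted t-test.

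Some values that had not been called changed sign. CDKN1C with miR-214-3p went from 0.089 to −0.068 under normexp and −0.076 under median scaling, and ran from −0.11 to 0.29 when an array was left out. CDKN2A under median scaling came to −0.061, −0.048 and −0.012 in the 3 comparisons, by a shift that all probes share, and relative to the median of all probes it stayed at 0.27, 0.13 and 0.12. With miR-214-3p it ran from −0.21 to 0.44 over fits that left out an array. The brighter CDKN3 probe with miR-205-5p ran from −0.45 to 0.024 over such fits. Of the other values, 397 kept their direction and side of the threshold.

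The labels number the arrays of each group alike, but same-numbered arrays deviated from their group means with correlations of 0.109, 0.00819 and −0.0514, so the numbers were not taken as pairs. With the replicate block the member counts were 0, 0 and 3, and over all probes the counts were 1970, 0 and 3535. Over all alternatives the calls among all probes ran from 0 to 3867 for miR-205-5p against the control (2250 as reported), from 0 to 1768 for miR-214-3p against the control (494) and from 448 to 5870 between the precursors (3678), so the background shares in the text hold for the reported setting alone. Leaving out an array left its group with 1, whose spread was then borrowed from the remaining groups. With 2 arrays per group and signals near background for the dimmer CDKN1B probe, small changes were not detectable here.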
